A study of Sus scrofa with 8 samples.

Results

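The extracellular matrix genes described here are 40 genes for collagen chains, laminin chains, fibulins and other scaffold proteins of the heart wall, measured in the right ventricle of control pigs and of pigs with a banded pulmonary artery. They were matched by the gene name that the authors' deposited table pairs with each Ensembl gene, and 37 of the 40 were found that way among the 31908 gene models of the count table. COL4A1 and LAMA5 have no name there and were matched through a reference table of gene names. LAMA2 is paired with 2 gene models, so it has no unique match. Counts of genes below refer to the 37, and the values of COL4A1, LAMA5 and LAMA2 are given separately.

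Total RNA of the right ventricular free wall, taken in bulk from Yorkshire Cross pigs, was sequenced with 1 library per animal. The banded group comprised 4 castrated males, operated on at 4.5 ± 0.6 weeks of age and 6.4 ± 1.3 kg, in which tape around the main pulmonary artery was tightened until right ventricular systolic pressure reached about 30 to 40 mmHg. The 4 controls were untreated pigs of similar age and weight, housed for 8 weeks. The sex of the controls, any sham operation and the time from banding to tissue collection are not given in the sources used here, so surgery and banding cannot be told apart.

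Collagens form the rope-like fibrils that carry tension between heart muscle cells (types I, III and V), the sheet of the basement membrane that wraps each muscle cell and capillary (type IV), and linking structures between them. Laminins assemble from an alpha, a beta and a gamma chain and bind cells to the basement membrane, where nidogens and the proteoglycan perlecan connect the laminin and collagen networks. Fibrillin, elastin and the fibulins build elastic fibres. In the pressure-loaded heart, fibroblasts are known as the main source of fibrillar collagen.

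The libraries held 31033679 to 34183338 counts, and a count of 0 allows a level of up to 0.0843 to 0.104 CPM (counts scaled to a common library size, with TMM factors between libraries; the limit is set by 3 counts and covers counting error alone). Of the 7 matched heart muscle markers, 6 were abundant, with means of 388 to 9748 CPM in either group, while TNNI3, the cardiac troponin I gene, averaged 15.3 ± 3.64 CPM in the control group and 6.45 ± 3.74 CPM in the banded group (SD, n = 4 each). The Y-linked gene DDX3Y was present in every library (52.4 to 64.2 CPM in controls and 44.7 to 61.1 CPM in banded pigs). Banded 4 stood apart from the other banded animals. It was the lowest of the 4 for 25 of the 34 matrix genes that entered the test, against 26.7% of all tested genes. It also held 1789 CPM of erythroid genes in sum (4 of 5 listed genes matched; 1730.3 CPM of it HBB), where controls held 74.8 to 322 CPM and banded 1 to 3 held 129 to 173 CPM.

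Of the 37 matrix genes, 34 passed the filter on low counts. In banded pigs 6 of these were higher and 2 lower at an adjusted p under 0.05 (edgeR quasi-likelihood test, adjusted over 13697 genes), which is 23.5% of the 34, and over all tested genes 6.97% passed. By direction, 17.6% of the matrix genes were higher against 3.47% of all genes, and 5.88% were lower against 3.5%. The matrix genes were chosen with earlier results of these data known, so these shares are not an unbiased comparison. The genes that rose were COL8A1, COL12A1, COL18A1, NID2, FBLN1 and EFEMP2, and those that fell were LAMB2 and COL15A1. The median log2 fold change of the 34 genes was 0.05, with 17 positive and 17 negative values, and the median of all tested genes was 0.02. By class, 0 of 7 fibrillar, 0 of 3 type VI and 0 of 2 tested type IV collagen genes passed the test. Type IV collagen, COL15A1, COL18A1, laminin, nidogen and perlecan genes were counted as basement membrane zone, and all others as interstitial. Among the 23 interstitial genes 4 were higher and 0 lower. Among the 11 genes of the basement membrane zone 2 were higher and 2 lower. The 4 include COL8A1, known from vessel walls, and FBLN1, which is also found in basement membranes, so the split depends on that assignment.

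**Figure D1:**
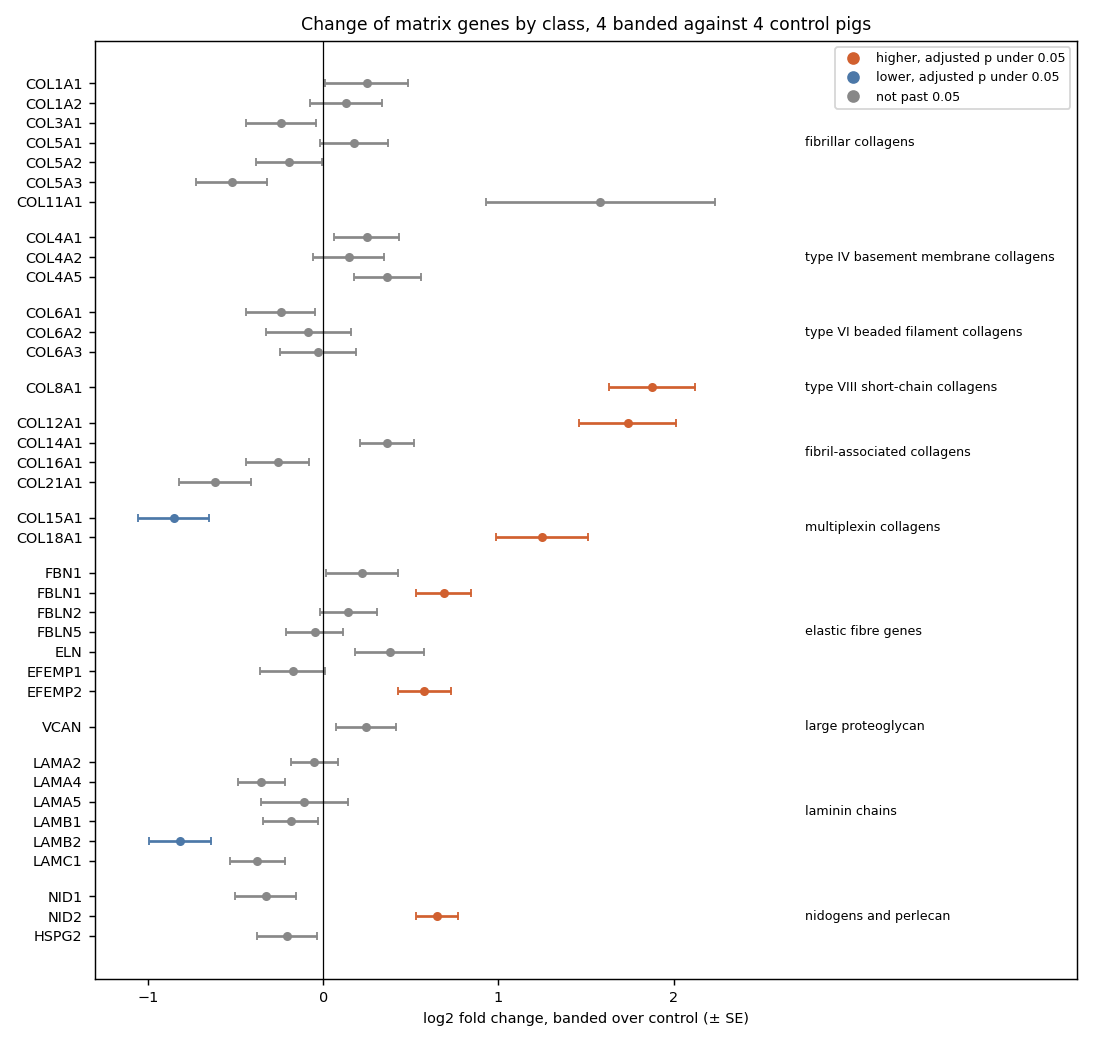
Change of each tested matrix gene, with COL4A1, LAMA2 and LAMA5, grouped by class. Points give the log2 fold change of banded over control with its SE (4 animals per group), orange for genes that rose, blue for genes that fell and grey for genes that did not pass; COL8A1 (1.88) and COL12A1 (1.74) lie farthest to the right among the called genes, and every fibrillar collagen is grey.

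Levels can be compared between genes only per length, and RPKM, the CPM per kilobase of exon, is used for this. In controls the highest level was that of COL3A1, the type III collagen chain of pliable fibrils (1046 ± 145 RPKM), followed by the type I chains COL1A1 (277 ± 37.1) and COL1A2 (225 ± 26.8). COL4A1 stood at 206 ± 8.56 RPKM, COL6A1 at 106.03 ± 13.5 and LAMB2 at 101 ± 15.7. The lowest of the tested genes was COL11A1 at 0.154 ± 0.0645 RPKM. Summed over all 40 genes, with COL4A1 counted only in part, matrix transcripts took 1.57 to 2.02% of all counts in controls. They took 1.04 to 2.18% in banded pigs, so the ranges overlapped. COL1A1, COL1A2 and COL3A1 alone took 0.813 to 1.01% and 0.482 to 1.14%.

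**Figure D2:**
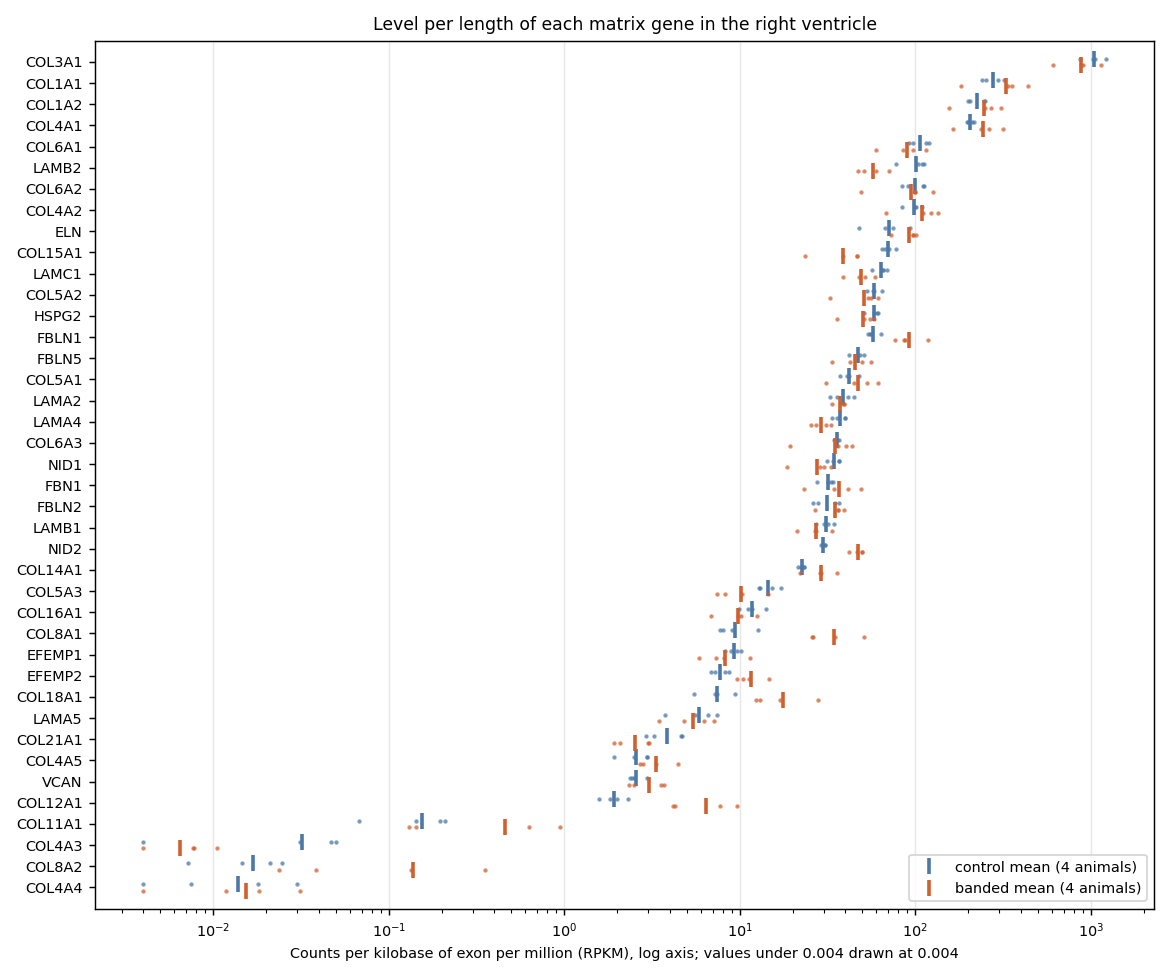
Level per length of the 40 matrix genes (RPKM, log axis), ordered by the control mean. Dots are animals and bars are group means; COL3A1 is highest in both groups, and COL11A1, COL4A3, COL8A2 and COL4A4 have the lowest control means.

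Type I and type III collagen transcripts did not pass the test in either direction. COL1A1 (chromosome 12, 26379090 to 26397003, Sscrofa11.1) was at 1455, 1383, 1845 and 1693 CPM in controls 1 to 4 and at 2059, 2540.2, 1931 and 1051 CPM in banded 1 to 4. Banded 1, 2 and 3 were above every control and banded 4 was below every control, so the banded animals lay on either side of the control range. The log2 fold change was 0.25 ± 0.24 (SE; 95% interval -0.27 to 0.77, edgeR adjusted p = 0.567), an interval that leaves room for a rise of up to 1.70-fold. COL3A1 (chromosome 15, 93556912 to 93615815) was at 5763, 4902, 5963 and 6884 CPM in controls 1 to 4 and 4956, 6435, 5094 and 3410.2 CPM in banded 1 to 4. Banded 1, 2 and 3 lay within the control range and banded 4 below it. The log2 fold change was -0.24 ± 0.20 (95% interval -0.68 to 0.20, edgeR adjusted p = 0.508). The span of COL3A1 overlaps that of COL5A2 by 3960 bases on the opposite strand, with no exon shared. COL1A2 had a log2 fold change of 0.13 ± 0.21 (edgeR adjusted p = 0.757).

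Type V and type XI collagens are minor chains that sit inside type I and type II fibrils and limit their thickness. COL5A1 and COL5A2 had log2 fold changes of 0.18 ± 0.19 and -0.19 ± 0.19 (edgeR adjusted p = 0.628 and 0.574). COL5A3 was at 104, 117, 88.8 and 88.2 CPM in controls 1 to 4 and 99.4, 56.5, 70.4 and 50.9 CPM in banded 1 to 4. Only banded 1 lay within the control range, the log2 fold change was -0.52 ± 0.20 and the edgeR adjusted p was 0.143 (0.0285 without banded 1). COL11A1, mostly known from cartilage, was low in this tissue, at 1.64, 1.19, 1.74 and 0.561 CPM in controls 1 to 4 and 1.20, 7.91, 1.08 and 5.25 CPM in banded 1 to 4. Banded 2 and banded 4 were above all controls, and banded 1 and banded 3 lay within the control range (log2 fold change 1.58 ± 0.65, edgeR adjusted p = 0.176, DESeq2 adjusted p = 0.0494). In the same 2 animals a list of 6 cartilage and valve genes was highest in sum (37.5 and 23.8 CPM, against 3.43 to 9.86 in controls and 8.31 and 16.6 in banded 1 and banded 3). Of that list, 1 of 3 tested genes rose, where 3.47% of all tested genes rose. It was the cartilage matrix gene CHAD, from 1.95 ± 0.981 to 11.5 ± 7.64 CPM (log2 fold change 2.55 ± 0.59, edgeR adjusted p = 0.0372). That call ended without any 1 control (0.0531 to 0.113), banded 2 (0.0633) or banded 4 (0.0718). The cartilage collagen COL2A1 had 0 to 5 counts per library. The part of that tissue in the COL11A1 values was not tested.

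The chains of type IV collagen, the network of the basement membrane, did not pass the test. COL4A2 (chromosome 11, 76997516 to 77161615) was at 644, 708, 655 and 547 CPM in controls 1 to 4 and 720.3, 868, 797 and 439.9 CPM in banded 1 to 4 (log2 fold change 0.15 ± 0.20, edgeR adjusted p = 0.711). Banded 1, 2 and 3 were above all controls and banded 4 was below them, an arrangement shared with COL4A1. Its partner gene COL4A1 starts 101 bases away on the opposite strand and is split in the annotation into a 3′ model (76858296 to 76888850) and an unnamed 5′ model (76894904 to 76997414). The log2 fold changes of these parts were 0.25 ± 0.19 and 0.31 ± 0.20 (edgeR adjusted p = 0.458 and 0.377). Per length the 3′ part held 1.69 ± 0.0392 times the counts of the 5′ part in controls and 1.63 ± 0.119 times in banded pigs (SD, n = 4 each). COL4A5, an X-linked chain of specialised basement membranes, had a log2 fold change of 0.37 ± 0.19 (edgeR adjusted p = 0.274). COL4A3 and COL4A4, known for the filter of the kidney, had 0 to 14 and 0 to 8 counts per library and were not tested.

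The chains of type VI collagen, which forms beaded filaments beside the basement membrane, did not pass the test. COL6A1, COL6A2 and COL6A3 had log2 fold changes of -0.24 ± 0.20, -0.08 ± 0.24 and -0.03 ± 0.22 (edgeR adjusted p = 0.494, 0.874 and 0.951). COL6A3 was at 406, 434, 414 and 418 CPM in controls, a narrow range, and at 425, 513, 472 and 228 CPM in banded pigs. All 3 genes were highest in banded 2 and lowest in banded 4 among the banded animals. COL6A2 lies on an unplaced scaffold of the assembly and not on a chromosome.

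COL8A1 showed the largest rise of the called genes. It encodes a short-chain collagen known from vessel walls and from the membrane under the corneal endothelium. COL8A1 (chromosome 13, 159216138 to 159374504) was at 42.6, 44.3, 70.2 and 49.9 CPM in controls 1 to 4 and at 142, 192, 282 and 144 CPM in banded 1 to 4. Every banded animal held at least 2 times the level of the highest control, and banded 3 held the most. The rise was 3.67-fold (log2 fold change 1.88 ± 0.25, edgeR adjusted p = 0.00188), and the adjusted p stayed under 0.05 without any 1 library (0.000874 to 0.0108). Its partner COL8A2 missed the filter on low counts, with 1 to 3 counts in each control and 3, 19, 5 and 41 counts in banded 1 to 4. Smooth muscle and pericyte markers, 8 genes of which 0 passed the test, summed to 1004 to 1334 CPM in controls and to 1154, 1171, 2384 and 833 CPM in banded 1 to 4. The high sum of banded 3 came from CNN1, a calponin gene, at 1348 CPM in that animal. Without CNN1 the other 7 genes summed to 918 to 1218 CPM in controls and to 804, 898, 1036 and 677 CPM in banded 1 to 4. Of these 7 genes 5 had a negative log2 fold change, and the median of all 8 markers was -0.43 (0.02 over all tested genes). The part of these cells in the COL8A1 values was not tested. COL8A2 had an edgeR adjusted p of 0.0938 without a filter, and its DESeq2 adjusted p was 0.0293.

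Collagens of the fibril-associated class decorate the surface of fibrils. Of 4 such genes 1 rose, where 3.47% of all tested genes rose. COL12A1 (chromosome 1, 90744429 to 90875118), known from tendon and from tissue under mechanical load, was at 27.9, 19.1, 24.3 and 22.1 CPM in controls 1 to 4 and at 50.1, 117, 93.1 and 51.6 CPM in banded 1 to 4. The groups did not overlap, and banded 2 and banded 3 held more than banded 1 and banded 4. The rise was 3.34-fold (log2 fold change 1.74 ± 0.28, edgeR adjusted p = 0.00671; 0.00345 to 0.0288 without any 1 library). COL14A1, a close relative of type XII, had a log2 fold change of 0.36 ± 0.15 (edgeR adjusted p = 0.175), and 3 banded animals lay above all controls. COL21A1, another member of the class, had a log2 fold change of -0.62 ± 0.21 (edgeR adjusted p = 0.0997) and COL16A1 one of -0.26 ± 0.18 (0.416).

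COL15A1 and COL18A1 encode the multiplexins, collagens of the basement membrane zone that also carry glycosaminoglycan chains, and they went in opposite directions. COL18A1 (chromosome 13, 207907857 to 207985181), from which the fragment endostatin is released, was at 74.7, 77.0, 96.8 and 56.8 CPM in controls 1 to 4 and 176, 287, 135 and 127 CPM in banded 1 to 4. COL15A1 (chromosome 1, 240653017 to 240829188), a collagen of muscle and capillary basement membranes, was at 481, 501, 581 and 530.4 CPM in controls 1 to 4 and 346, 347, 291 and 176 CPM in banded 1 to 4. Neither gene's groups overlapped. COL18A1 rose 2.38-fold (log2 fold change 1.25 ± 0.26, edgeR adjusted p = 0.0206), a call that ended without control 1 (0.0654) or control 2 (0.0648) and with scaling by library size alone (0.0712). COL15A1 fell by 0.85 ± 0.20 on the log2 scale (edgeR adjusted p = 0.0297), a call that was lost on leaving out any single control library (0.0563 to 0.093).

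Among 7 elastic fibre genes 2 rose and 0 fell, where 3.47% of all tested genes rose and 3.5% fell. FBLN1 (chromosome 5, 3839501 to 3927183), the gene of fibulin-1 in elastic fibres and basement membranes, was at 212, 202, 243 and 208 CPM in controls 1 to 4 and 329, 447, 291 and 326 CPM in banded 1 to 4. The groups did not overlap, and banded 2 was highest (log2 fold change 0.69 ± 0.16, edgeR adjusted p = 0.0248). EFEMP2 (chromosome 2, 6450332 to 6463493), the gene of fibulin-4, which brings elastin and the crosslinking enzyme lysyl oxidase together, was at 24.6, 26.0, 29.7 and 31.2 CPM in controls 1 to 4 and 37.9, 53.1, 34.6 and 40.8 CPM in banded 1 to 4. The groups did not overlap (log2 fold change 0.58 ± 0.15, edgeR adjusted p = 0.0447). The FBLN1 call was lost on leaving out any single control library (0.0527 to 0.0866) or with scaling by library size alone (0.086). The EFEMP2 call was lost on leaving out any single control library (0.0563 to 0.135), banded 1 (0.0586), banded 2 (0.0924) or banded 4 (0.0629), and under upper-quartile (0.0545) or library size scaling (0.14).

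The elastic fibre genes that did not pass included the scaffold's main components. ELN, the elastin gene, was at 159.7, 178, 220.4 and 114 CPM in controls 1 to 4 and 230.3, 241, 231 and 172 CPM in banded 1 to 4, with 3 banded animals above all controls (log2 fold change 0.38 ± 0.20, 95% interval -0.05 to 0.81, edgeR adjusted p = 0.267). FBN1, which encodes the fibrillin of microfibrils, had a log2 fold change of 0.22 ± 0.21 (edgeR adjusted p = 0.555). For FBLN2, FBLN5 and EFEMP1 the log2 fold changes were 0.14 ± 0.16, -0.05 ± 0.16 and -0.17 ± 0.18 (edgeR adjusted p = 0.641, 0.887 and 0.612). VCAN, the large proteoglycan versican of loose matrix, had one of 0.24 ± 0.17 (edgeR adjusted p = 0.416).

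All 4 laminin genes of the 37 had negative log2 fold changes, and 1 of them fell, where 3.5% of all tested genes fell. LAMB2 (chromosome 13, 31738284 to 31771220), the beta chain of adult muscle and vessel laminins, was at 659.7, 635, 607 and 456 CPM in controls 1 to 4 and 348, 416, 275 and 300.2 CPM in banded 1 to 4. The groups did not overlap, and the lowest control was control 4. Over the 6 laminin chains together, counts summed to 1656 to 2057 CPM in controls and 1185 to 1495 CPM in banded pigs, mostly from LAMB2 and LAMC1. The fall was 0.82 ± 0.17 on the log2 scale (edgeR adjusted p = 0.0197), a call that ended without control 1 (0.067), control 2 (0.0668) or control 3 (0.0607). LAMC1, the gamma chain common to most laminins, was at 663, 626, 629 and 544 CPM in controls 1 to 4 and 496, 457, 569 and 374 CPM in banded 1 to 4. Only banded 3 reached into the control range (log2 fold change -0.38 ± 0.16, edgeR adjusted p = 0.169). LAMA4, an alpha chain of capillary basement membranes, was at 264, 222, 262 and 236 CPM in controls 1 to 4 and 204, 219, 181 and 168 CPM in banded 1 to 4. Its groups did not overlap but the gene did not pass the test (log2 fold change -0.35 ± 0.13, edgeR adjusted p = 0.141). Over the 34 genes the groups did not overlap for 6 higher and 3 lower genes, 26.5% in all, against 15.9% of all tested genes (7.66% higher and 8.2% lower). The 6 and 3 are the called genes and LAMA4.

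The other laminin chains did not pass the test. LAMB1 had a log2 fold change of -0.19 ± 0.16 (edgeR adjusted p = 0.51). LAMA5, an alpha chain of vessel walls, had one of -0.11 ± 0.25 (edgeR adjusted p = 0.842). LAMA2, the alpha chain of the laminin around muscle cells, was counted only in part, because 62.5% of the exon bases of its main model are shared with a second model and read pairs there were not assigned. That main model was at 160.0, 128, 116 and 148 CPM in controls 1 to 4 and 141, 139, 119 and 135 CPM in banded 1 to 4 (log2 fold change -0.05 ± 0.14, edgeR adjusted p = 0.866). LAMB2 shares 7.29% of its exon bases with USP19 and CCDC71 on the same strand.

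The 2 nidogen genes, which encode the linkers between laminin and type IV collagen, behaved differently in the test, which NID2 passed and NID1 did not. NID2 (chromosome 1, 181699112 to 181772750) was at 148, 147, 139.7 and 144 CPM in controls, the tightest control values of all 34 genes, and at 202, 225, 240.2 and 241 CPM in banded pigs. The groups did not overlap, and unlike most matrix genes it was highest in banded 3 and banded 4. NID2 rose 1.57-fold (log2 fold change 0.65 ± 0.12, edgeR adjusted p = 0.00958), and the call held without any 1 library (0.013 to 0.0427). NID1 was at 309, 309, 287 and 264 CPM in controls 1 to 4 and 279, 242, 253 and 157 CPM in banded 1 to 4 (log2 fold change -0.33 ± 0.17, edgeR adjusted p = 0.285). HSPG2, the perlecan gene, had a log2 fold change of -0.21 ± 0.17 (edgeR adjusted p = 0.501). As markers of vessel cells, 8 endothelial genes summed to 875 to 1032 CPM in controls and 899 to 934 CPM in banded pigs. Their median log2 fold change was -0.21 (0.02 over all tested genes). Of the 8, 1 fell, where 3.5% of all tested genes fell. It was EMCN, from 62.0 ± 2.96 to 41.7 ± 5.53 CPM (edgeR adjusted p = 0.0207, lost without control 1, 2 or 3 at 0.0561 to 0.0747 or banded 1 at 0.0507). The part of vessel cells in the basement membrane results was not tested. In bulk tissue fewer cells of a type and less RNA per cell cannot be told apart.

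**Figure D3:**
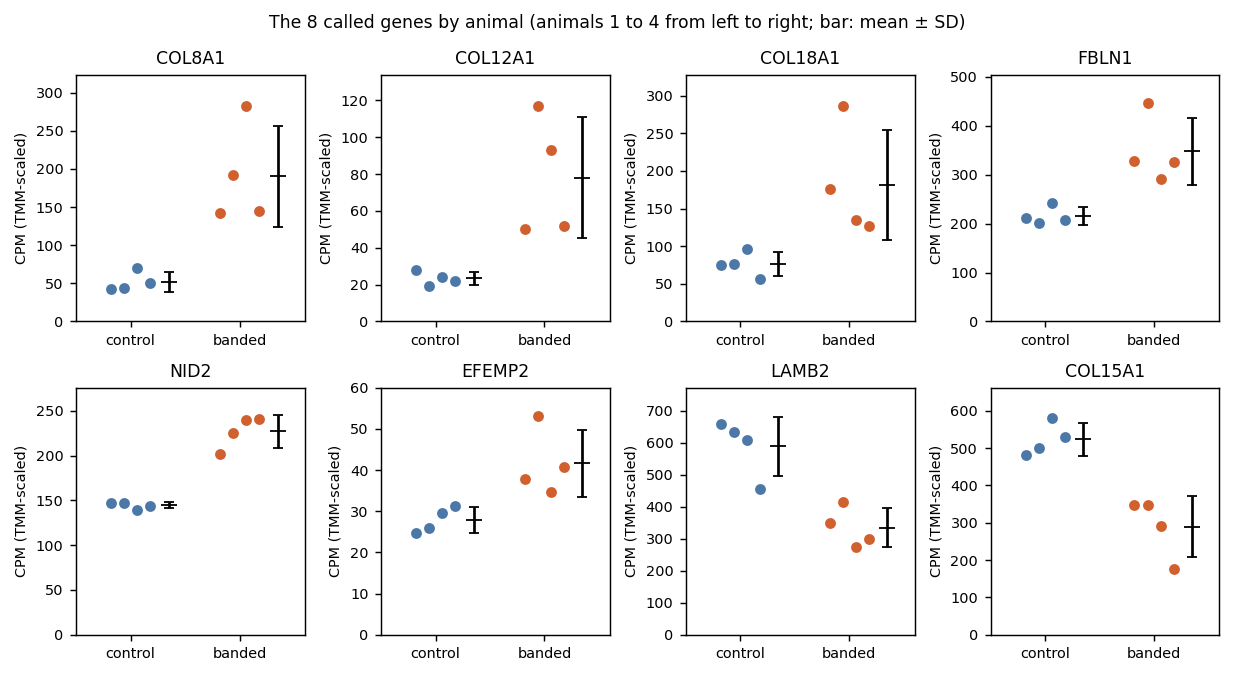
The 8 called genes in each animal (TMM-scaled CPM, axes from 0, animals 1 to 4 from left to right in each group, black bar mean ± SD of 4). In every panel the lowest value of the higher group lies above the highest value of the other; the NID2 controls lie between 139.7 and 147.6 CPM.

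Pairs of related matrix genes were then compared within each animal, as a ratio of counts per length needs no scaling between libraries. Not every pair is built into the same molecule, so a ratio is not always one of partner chains. The pairs were chosen with earlier results of these data known. Of 20 pairs, 5 had ratios whose groups did not overlap, each with an exact two-sided permutation p of 0.0286, the smallest that 4 against 4 allows, and an adjusted p of 0.114 over the 20. None of the 20 therefore passed after adjustment. With that smallest p, passing would need many of the 20 pairs to reach it, so this outcome was largely set by the design. The widest shift was that of COL15A1 over COL18A1. This ratio was 8.90, 8.99, 8.29 and 12.9 in controls 1 to 4 and 2.72, 1.67, 2.97 and 1.91 in banded 1 to 4. Its geometric mean was 4.27-fold lower in banded pigs. Its groups had to separate, as COL15A1 was lower and COL18A1 higher in every banded animal than in any control. The ratio is therefore not evidence apart from the results of those genes. NID1 over NID2 was 1.20, 1.20, 1.18 and 1.04 in controls 1 to 4 and 0.792, 0.615, 0.602 and 0.373 in banded 1 to 4. Per annotated length NID1 was thus above NID2 in every control and below it in every banded animal. Which side of 1 a ratio falls on depends on the exon lengths used, but the shift between groups does not.

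The remaining separated ratios involved genes that had not all passed on their own. EFEMP2 over EFEMP1, the fibulin-4 and fibulin-3 genes, was 0.828, 0.747, 0.916 and 0.852 in controls 1 to 4 and 1.29, 1.28, 1.30 and 1.93 in banded 1 to 4. COL5A1 over COL5A2 was 0.699, 0.733, 0.737 and 0.708 in controls 1 to 4 and 0.8289, 0.998, 0.946 and 0.956 in banded 1 to 4, although neither chain passed the test. LAMA4 over LAMA2 was 0.892, 0.935, 1.22 and 0.859 in controls 1 to 4 and 0.781, 0.85, 0.817 and 0.672 in banded 1 to 4, with LAMA2 counted only in part.

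Other pairs had overlapping ratios. COL1A1 over COL1A2, partners in type I collagen, was 1.23 in controls and 1.32 in banded pigs (geometric means, exact permutation p = 0.257). COL3A1 over COL1A1 was 4.06, 3.63, 3.31 and 4.17 in controls 1 to 4 and 2.47, 2.60, 2.70 and 3.32 in banded 1 to 4, with banded 4 alone inside the control range (exact permutation p = 0.0571). Among further pairs, COL6A1 over COL6A2 was 1.07 and 0.979 (exact permutation p = 0.314), and LAMB1 over LAMB2 was 0.309 and 0.475 (exact permutation p = 0.0571). COL4A1 over COL4A2 was 2.09 and 2.25 from the 3′ model alone, and 1.73 and 1.87 with both models of COL4A1 summed. COL4A3 over COL4A4 and COL8A1 over COL8A2 rest on a few counts and are not interpretable as ratios.

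**Figure D4:**
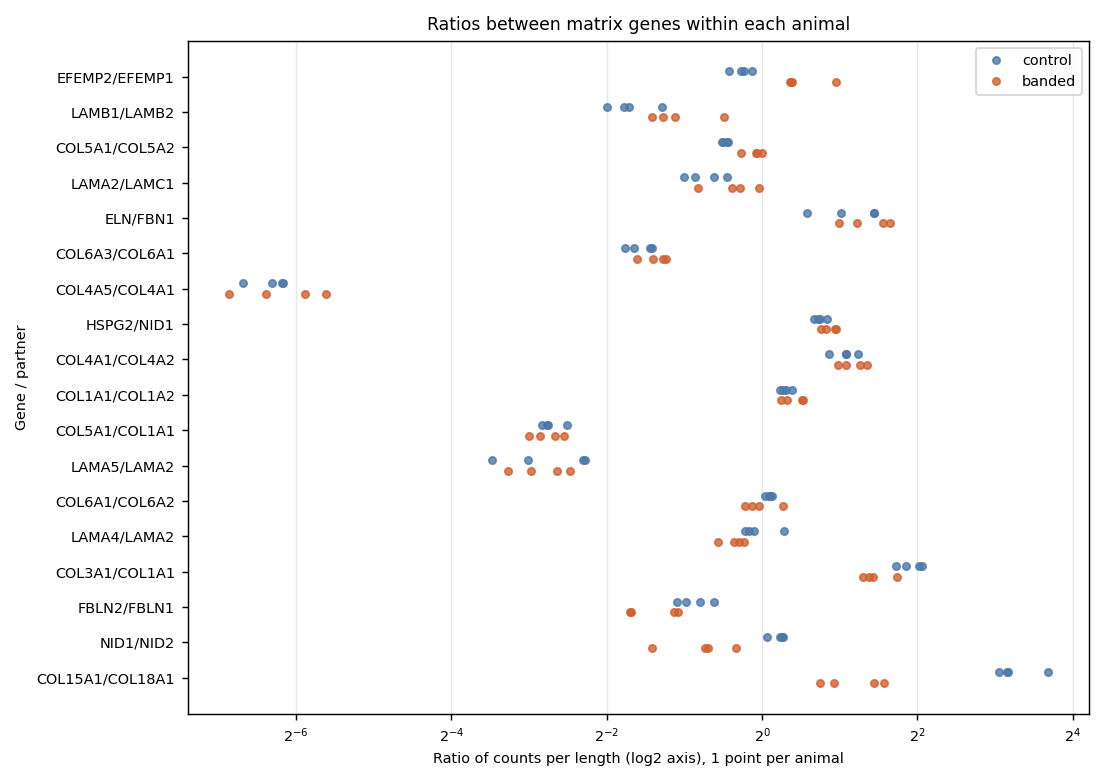
Ratio of counts per length between 18 pairs of matrix genes, 1 point per animal (log2 axis), ordered by the difference between groups; the 2 pairs with a few counts are left out. The points of COL15A1/COL18A1 and NID1/NID2 at the bottom and EFEMP2/EFEMP1 at the top separate by group.

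Matrix genes varied more between the banded animals than between the controls. The coefficient of variation over 4 animals had a median of 10.95% in controls and 24.4% in banded pigs, and was larger in banded pigs for 32 of the 34 genes, a difference that was not tested. Over all tested genes the medians were 16.1% and 22.0%, and it was larger in banded pigs for 67.1%. Without banded 4 the banded median of the matrix genes was 14.8% and 25 of 34 genes varied more than in controls, with 59.8% of all genes. Relative to the control mean, the median log2 level of the 34 genes was 0.05 in banded 1, 0.30 in banded 2, 0.09 in banded 3 and -0.54 in banded 4. Banded 4 lay below every control for 22 of the 34 genes (30.4% of all genes), and banded 2 above every control for 19 (28.3% of all genes). The 6 fibroblast markers that are not collagens were DCN, LUM, PDGFRA, TCF21, DPT and GSN. They summed to 3429, 3844, 5117 and 4426 CPM in controls and 3461, 3687, 2561 and 3027 CPM in banded 1 to 4. On that sum banded 3 and banded 4 lay below every control, and banded 3 was the lowest. Of the full list of 8 fibroblast markers 0 rose and 1 fell, where 3.47% of all tested genes rose and 3.5% fell. The marker that fell was PDGFRA, from 59.4 ± 6.54 to 42.2 ± 5.38 CPM (edgeR adjusted p = 0.048, lost without any 1 control, banded 1 or banded 4 at 0.0648 to 0.151). The part of blood content or of cell makeup in the low matrix values of banded 4 was not tested. Called genes departed from this order in part, as COL8A1 was highest in banded 3 and NID2 in banded 3 and banded 4.

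**Figure D5:**
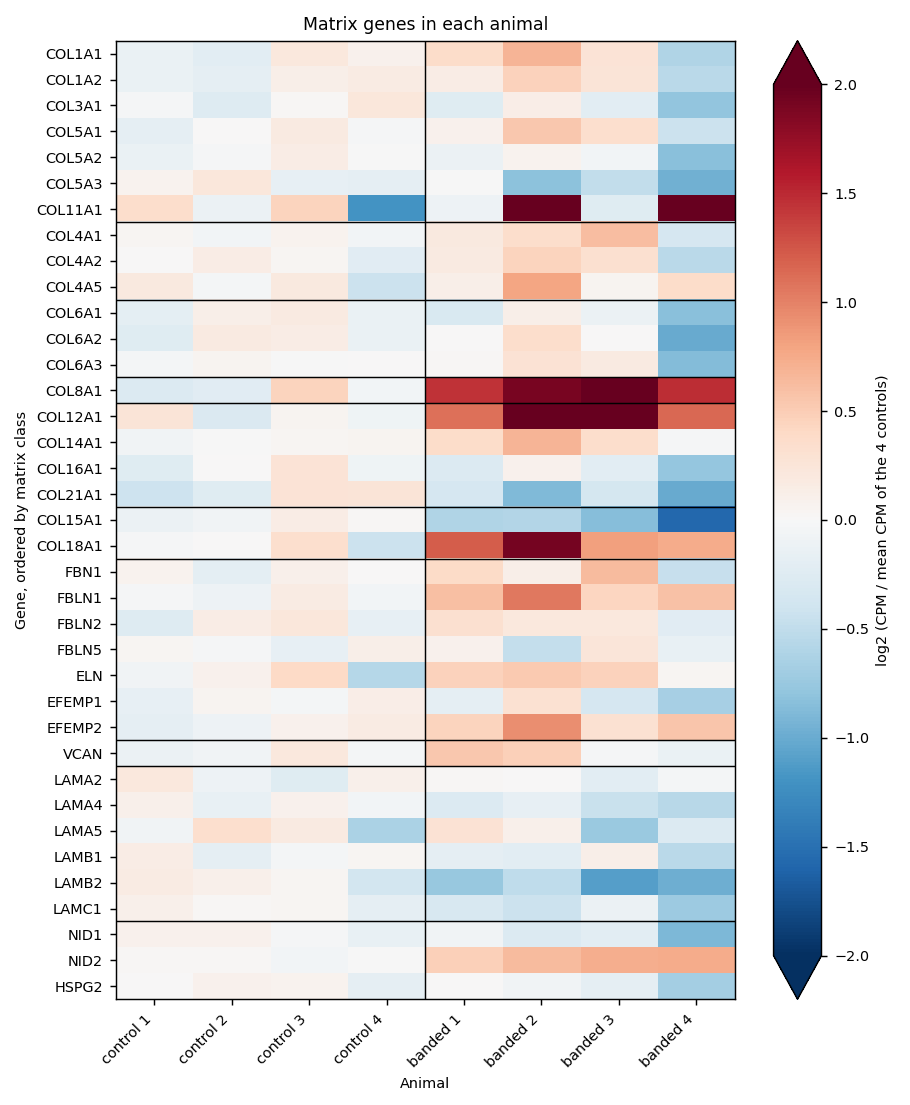
Level of each tested matrix gene, with COL4A1, LAMA2 and LAMA5, in each animal relative to the mean of the controls (log2, red higher, blue lower), ordered by class, with lines between classes and between the groups. Most rows are bluest in banded 4, while COL8A1, COL12A1, COL18A1, FBLN1, EFEMP2 and NID2 are red in all 4 banded animals.

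Enzymes that modify, fold and trim collagen were examined beside the chains. Of 25 tested genes of this list 3 were higher and 0 lower, with a median log2 fold change of 0.17. Over all tested genes 3.47% were higher and 3.5% lower, and the median was 0.02. BMP1, the protease that cuts the carboxyl propeptide from fibrillar procollagens, was at 37.6, 33.8, 39.6 and 38.1 CPM in controls and 68.5, 74.4, 66.0 and 57.5 CPM in banded pigs (log2 fold change 0.84 ± 0.12, edgeR adjusted p = 0.00266). Its groups did not overlap. PPIB, a prolyl isomerase of the collagen folding complex, was at 69.5 ± 5.01 and 97.6 ± 2.96 CPM (0.49 ± 0.11, edgeR adjusted p = 0.0234, and 0.0764 to 0.0871 without control 1, 2 or 3). ADAMTS3, a protease of the amino propeptide, was at 2.00 ± 0.379 and 5.39 ± 2.22 CPM (1.43 ± 0.34, edgeR adjusted p = 0.0304). Its banded 1 value (2.21 CPM) lay in the control range, and its call ended without any 1 control, banded 2 or banded 4 (0.061 to 0.09). SPARC, a collagen-binding glycoprotein with the highest counts of the list, was at 1603 ± 187 and 2307 ± 371 CPM and did not pass (0.53 ± 0.17, edgeR adjusted p = 0.083), although its groups did not overlap.

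Of 26 tested collagen, laminin and elastic fibre genes outside the 40, 2 were higher, and genes that were lower included COL27A1. Over all tested genes 3.47% were higher and 3.5% lower. COL27A1, a fibrillar collagen of cartilage, fell from 16.9 ± 2.07 to 8.91 ± 2.38 CPM (-0.92 ± 0.20, edgeR adjusted p = 0.022, and 0.0579 to 0.0774 without control 1, 2 or 3). FBN2, the fibrillin of developing tissue, rose from 13.1 ± 1.86 to 25.7 ± 7.48 CPM (0.97 ± 0.21, edgeR adjusted p = 0.0194, lost without control 1 at 0.0555 or control 2 at 0.0688). MFAP4, a microfibril-associated glycoprotein, rose from 64.3 ± 15.9 to 129 ± 36.9 CPM (1.01 ± 0.22, edgeR adjusted p = 0.0223, lost without control 1 at 0.0733 or control 4 at 0.0567). MFAP5, with the highest control counts of this list, was at 139 ± 23.9 and 104 ± 19.2 CPM (edgeR adjusted p = 0.159).

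The authors' deposited table gives the opposite ratio and was turned here to banded over control. It lists 8 of the 37 matrix genes as higher and 4 as lower at an adjusted p under 0.05. Over all 14099 genes with an adjusted p in it, 1489 were under 0.05 in either direction. The matrix genes it lists are the 8 called here and in addition COL11A1 (log2 1.89, adjusted p = 0.0073), COL8A2 (3.34, 0.0167), COL21A1 (-0.72, 0.0263) and LAMC1 (-0.48, 0.0143). In the authors' deposited table the log2 fold change of COL8A1 was 1.62, that of COL12A1 1.64, that of COL18A1 1.36 and that of NID2 0.62.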

How the data were processed

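Right ventricular RNA of 4 control and 4 banded pigs was analysed from the deposited tables, and samples were grouped by the treatment label. Counts of read pairs by gene model were made by the authors using featureCounts 1.6.2, per the file headers (mapping quality of at least 10, both ends mapped, strand setting 2), on Ensembl release 106 of Sscrofa11.1, and the deposited counts are not normalised. Trimmomatic, HISAT2, Subread and DESeq2 are named in the submitters' processing notes, with no settings. The authors' deposited table holds log2 values (control relative to banded) with an SE, a mean normalised signal, a Wald score, a p-value and an adjusted p-value. Its model is not given in the sources used here.

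Genes were kept by filterByExpr (minimum count 10, minimum total 15), scaled by TMM and tested by edgeR 4.0.16 (R 4.3.3; robust quasi-likelihood, two-sided), and p was adjusted by Benjamini-Hochberg over 13697 genes. The SE of a log2 fold change was taken from the F statistic (absolute change divided by its square root). RPKM used the exon bases that no other model shares on the same strand. Ratios between genes (1 count added to each gene) were tested by exact two-sided permutation over 70 assignments. In a simulation of banded against control with 13510 genes, 2.99% of 67 genes with a 1.5-fold change were called. Of 65 with a 2-fold change 49.2% were called, and of 66 with a 4-fold change 90.9%. These were the only genes changed, a smaller share than was called in the data. The adjusted threshold was therefore stricter there, and the rates may be too low for the data. Most changes of 1.5-fold were missed in that simulation. Alternatives were DESeq2 1.42.0, limma-voom (limma 3.58.1), other scalings and filters, no robust estimation, 1 surrogate variable (sva 3.50.0), no mitochondrial-genome genes, leaving out each library, and, chosen after seeing the data, summing split gene models. The matrix genes, classes, pairs and lists were chosen with earlier results of these data known. All 40 genes are described, and of each list beside them up to 6 called genes and the one with the highest counts are named. The result of 1 gene of these lists is not reported here. Sequences are not used here.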

Additional observations from a re-analysis of the deposited data

Results flagged for a closer look

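A library far from the other 3 of its group was seen in 1 of 74 sets of 4 CPM values, where chance gives about 1 in 20. ELN in banded 4 stood at 172.2 CPM, with the other banded libraries at 230.3 to 240.5 CPM. Among 40 sets of 4 ratios between genes 4 had such a library. COL15A1 over COL18A1 was 12.9 in control 4, against 8.29 to 8.99 in the other controls, and NID1 over NID2 was 1.04 in control 4, against 1.18 to 1.20. EFEMP2 over EFEMP1 was 1.93 in banded 4, against 1.28 to 1.30 in the other banded libraries. COL4A3 over COL4A4 was 4.82 in control 2, where the genes had 14 and 2 counts.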

How the results depend on the processing

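DESeq2 called 1629 genes in all and 8 matrix genes higher (2 lower), adding COL11A1 and COL8A2. Leaving out each library in turn gave 399 to 962 called genes in all, with 3 to 6 matrix genes higher and 0 to 3 lower. It gave 5 to 8 ratios between genes whose groups did not overlap. The lowest counts came without control 1 (399 genes, 3 higher and 0 lower), control 2 (415, 3 and 0) or control 3 (409, 4 and 0), and without control 4 there were 786, 4 and 1. The calls of COL8A1, COL12A1 and NID2 held in each of these fits. Scaling by library size alone called 3 matrix genes higher and moved the split over all genes to 303 higher and 508 lower, from 475 and 479, with a median of -0.09 over all genes (0.02 with TMM, log2). In all, 24 single calls, of 5 genes, were lost over 9 of the alternatives, and 0 of the called genes changed direction. With 4 animals per group, changes of 1.5-fold were mostly missed in the simulation, which had a smaller share of changed genes than was called in the data. No paired analysis was possible because the labels give no pairing between control and banded animals.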
